A study of Mus musculus with 4 samples.

Results

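The p53 target genes of developing mouse epidermis were followed in single-cell RNA-seq of sorted dorsal skin epithelium, to ask how the transcriptional programme of p53 stood after deletion of 3 H3K9 methyltransferase genes. The members were 32 gene symbols, Trp53 itself and 31 genes known to be activated by its product. They were picked by name from the 56980 genes of the matrices, and all 32 were found once. There were 4 libraries, each from 1 embryo per the study's methods, labelled E16.5 (embryonic day), although the study's list of litters gives an earlier day for its single-cell litter. All 4 embryos received tamoxifen and carried floxed Suv39h1 and Setdb1 alleles together with a germline deletion of Suv39h2, so that this deletion was shared by the controls. The 2 libraries called Ctrl lacked K14CreERT2 and the 2 called TKO (triple knockout) carried it. K14CreERT2 is a tamoxifen-dependent recombinase under a keratin 14 promoter, which is active in basal keratinocytes, and the study describes the knockout as mosaic. The replicate numbers come from the labels, and p-values measure the spread between these embryos.

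p53, the product of Trp53, is a transcription factor. It is held low by Mdm2, the ubiquitin ligase that marks it for degradation, and is stabilised mainly at the level of the protein when DNA is damaged or growth is disturbed. It then binds response elements made of a pair of short repeats and activates genes of cell cycle arrest, cell death, DNA repair and metabolic control, Mdm2 among them, so that the response limits itself. In epidermis the related factor p63 is required for the basal layer, and some genes of the p53 programme, such as Perp, are also p63 targets.

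Response elements are shown first because they are the sequence through which p53 is known to act. The consensus of the p53 response element is a pair of 10-base repeats, each with a central CNNG whose middle bases are A or T. It was searched on both strands within 3000 bases of each gene start (GRCm39 genome, GENCODE vM39 starts). The repeats had to abut, with both centres intact and at most 1 mismatch elsewhere. A match was found beside 4 of the 32 members (12.5%) and beside 158 of the 21757 protein-coding genes (0.7262%). With no mismatch allowed, 1 member and 25 coding genes (0.1149%) remained. The 4 elements follow, 5′ to 3′, with the centres of both repeats in capitals.
Cdkn1a: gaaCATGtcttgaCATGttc
Ccng1: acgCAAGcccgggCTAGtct
Zmat3: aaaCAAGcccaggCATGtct
Rps27l: gggCTTGttgagaCTTGtcc

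The Cdkn1a element lay at chr17:29309902-29309921 on the plus strand, outside the gene, with its centre at -25 from the annotated start. The Ccng1 element lay at chr11:40645763-40645782 on the minus strand, in an intron 376 bases after the start. The Zmat3 element, the one without a mismatch, lay at chr3:32418480-32418499 on the minus strand, in an annotated exon 1674 bases after the start. The Rps27l element lay at chr9:66853578-66853597 on the plus strand, in an intron 247 bases after the start. A match is a description of letters and not a measured site, and a gene without one is not shown to lack a site.

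The matrices held 19789 barcodes, of which 11221 had at least 2000 genes and under 10% mitochondrial UMIs. Of these, 9200 remained as keratinocytes (1571 to 2992 per library) after removal of doublets and other cell types. A small cluster led by muscle genes (Actc1, Myog) stayed among them, with 3 and 3 cells in Ctrl and 10 and 7 in TKO. It lies outside the 4 classes used below. Clusters were named from markers with the suffix -like, without use of any p53 target. This gave 500 to 1141 resting basal-like, 455 to 551 cycling basal-like, 201 to 688 suprabasal-like and 262 to 658 hair follicle-like cells per library. The study describes 2 aberrant clusters of mixed identity found only in TKO. The clustering here corrected between libraries and left out genes that differed between genotypes, and each of the 4 classes holds cells of every library. Where the aberrant cells lie among these classes was not tested. Levels are counts per 1000000 UMIs (CPM) of the class in a library. TKO was compared with Ctrl by edgeR's quasi-likelihood test on the 4 sums per class, with n = 2 against 2 and Benjamini-Hochberg adjusted p over all genes tested. Calls were made at an adjusted p under 0.05, and every adjusted p below comes from this test unless DESeq2 is named. The median keratinocyte was deeper in TKO (29927 and 28020 UMIs) than in Ctrl (21963 and 17325.5). Setdb1 was lower in every TKO library in all 4 classes and was called in cycling basal-like cells (log2 fold change -0.62, adjusted p = 0.0216). Suv39h1 was called in no class (log2 fold change -0.42 to 0.01), and nor was Suv39h2, whose deletion the groups share (0.14 to 0.25). Whether 3′ reads fall in the deleted part of each gene is not given in the sources used here. Library pairs shared 2 to 12 barcodes.

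Of other cell types, the 7 fibroblast markers summed to 994 and 1187 CPM (Ctrl) against 1009 and 693 (TKO) in resting basal-like cells, without a direction shared by the libraries. They were lower in both TKO libraries in cycling basal-like cells (1345 and 1503 against 982 and 906). The 8 immune markers reached 7.51 at most in resting basal-like cells, with Cd3e at 0 in all libraries. Immune markers were higher in both TKO libraries in all 4 classes, up to 22.2 in hair follicle-like cells of TKO 2 against 1.66 and 3.36 in Ctrl. The 5 endothelial markers were higher in both TKO libraries in all but the hair follicle-like cells (34.1 and 21.5 against 15.2 and 18.03 in resting basal-like cells, with Cldn5 at 0). The 5 melanocyte markers were lower in both TKO libraries in hair follicle-like cells (27.4 and 39.9 against 11.9 and 13.5) and higher in the other 3 classes, where they reached 16.1 at most. The 8 suprabasal markers were lower in both TKO libraries in every class, with 2819 and 1484 against 473 and 1343 in resting basal-like, 989 and 824 against 382 and 579 in cycling basal-like and 414 and 328 against 209 and 253 in hair follicle-like cells. The 6 erythroid markers were highest in Ctrl 2 in resting basal-like cells (713 against 20.4 to 40.4 in the other libraries) and in TKO 2 in hair follicle-like cells (349 against 12.9 to 21.7). The part of these markers in the results was not tested. A cluster led by stress genes (Fosl1, Cxcl1) gave 189 and 481 of the Ctrl and 207 and 77 of the TKO resting basal-like cells, without separating the genotypes. Haemoglobin genes led another resting basal-like cluster (128 to 290 cells per library), where 1 cell of Ctrl 2 held 12920 of its 13296 haemoglobin UMIs. Without that cell the cluster had 22.8 CPM of haemoglobin, within the 19.2 to 30.9 of the other resting basal-like clusters, each without its highest cell. Leaving the whole cluster out, an alternative chosen after seeing the data, gave the same 16 calls. Resting basal-like cells whose cycling markers passed the level that set cycling clusters made up 10.3% and 6.66% in Ctrl and 25.2% and 14.0% in TKO.

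A large part of the p53 programme was higher in TKO keratinocytes. Of 31 members tested, 16 rose in resting basal-like, 13 in cycling basal-like and 11 in hair follicle-like cells. Suprabasal-like cells had 7 of 30 raised. Only 1 member fell, in cycling basal-like cells. Over all genes tested, 4.96% were raised and 2.46% lowered in resting basal-like, 9.3% and 5.18% in cycling basal-like, 3.16% and 2.89% in hair follicle-like, and 1.32% and 0.458% in suprabasal-like cells. Ccng1, Eda2r, Plk2 and Ephx1 rose in all 4 classes, and Cdkn1a, Bax, Phlda3, Zmat3, Polk, Aen and Rps27l rose in 3, in each case all but the suprabasal-like cells. Tnfrsf10b and Ei24 rose in both basal-like classes, Trp53inp1 and Psrc1 in resting basal-like and suprabasal-like cells, Apaf1 in resting basal-like cells and Mdm2 in suprabasal-like cells. The member that fell was Perp. No class gave a call for 14 members, among them Gdf15, which had at most 5 UMIs in any library and class and was not tested.

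The median log2 fold change of the members tested was 0.89 in resting basal-like, 0.41 in cycling basal-like, 0.68 in suprabasal-like and 0.48 in hair follicle-like cells, where the median over all genes lay between -0.013 and 0.0039. Both TKO libraries lay above both Ctrl libraries for 21 of 31, 17 of 31, 23 of 30 and 16 of 31 members in the same order of classes, against 30.8%, 29.9%, 32.4% and 24.7% of all genes tested. For 14 of the 30 members tested in all 4 classes this held in each of them, against 11% of all genes tested in all 4. The count of called members depended on single libraries outside the basal layer. Without TKO 1 it was 1 in hair follicle-like cells, and without Ctrl 2 it was 5, whereas without TKO 2 it was 15 in suprabasal-like cells. The count lay between 12 and 18 in resting and between 13 and 16 in cycling basal-like cells with any 1 library left out. When clusters were built without correction between libraries it was 7 in resting basal-like cells. Cdkn1a, Plk2, Psrc1, Trp53inp1, Tnfrsf10b, Apaf1, Aen, Phlda3 and Ei24 then lost their call there.

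**Figure D1:**
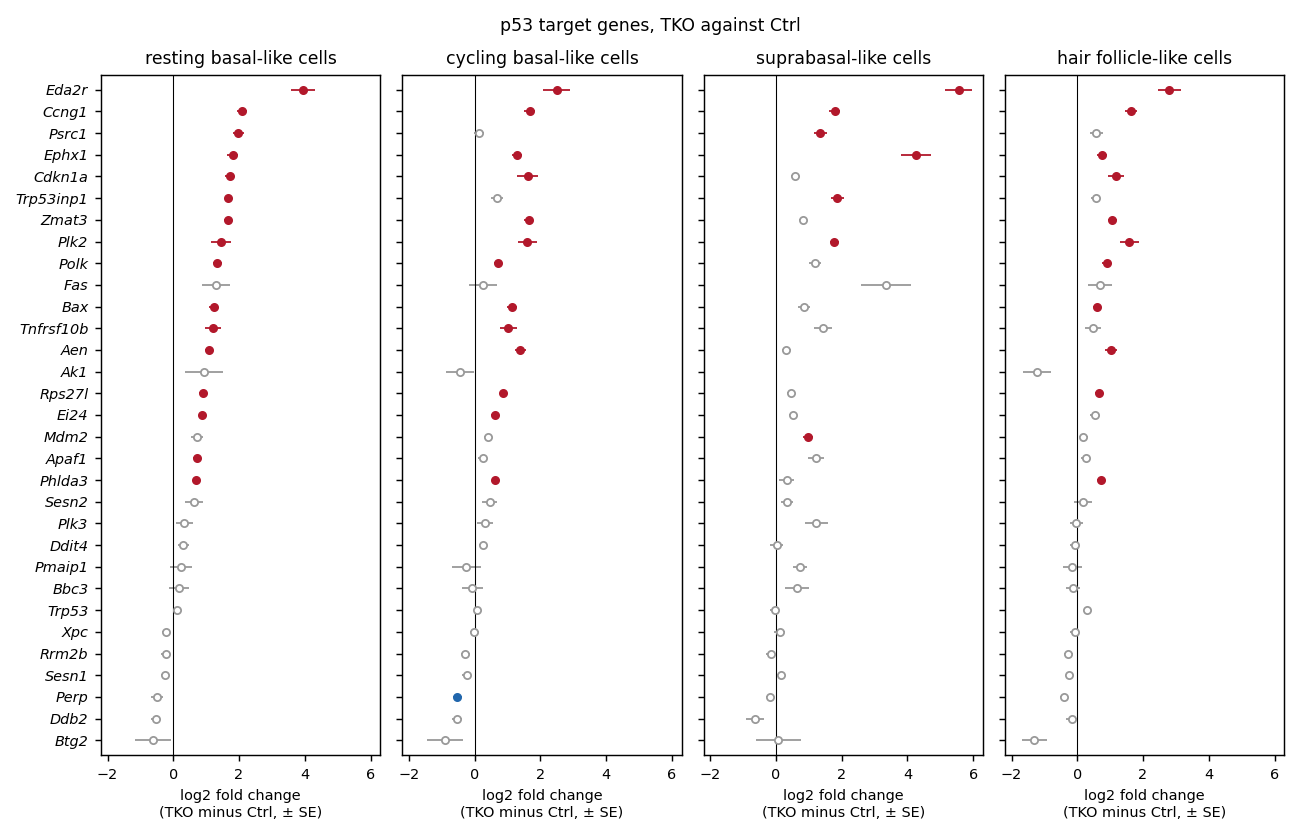
The log2 fold change of TKO over Ctrl (x axis, with its SE) for 31 members in 4 classes of cells, ordered by the value in resting basal-like cells. Filled red points were raised and the filled blue point (Perp) lowered at an adjusted p under 0.05, and open grey points were not called. Eda2r, Ccng1, Plk2 and Ephx1 are red in every panel, with Eda2r at 5.56 in suprabasal-like cells, and Trp53 lies between -0.04 and 0.28.

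Trp53 itself was not called in any class. Resting basal-like cells had 165 and 195 CPM (Ctrl) against 196 and 201 (TKO), so that TKO lay above Ctrl by less than the Ctrl libraries lay apart (log2 fold change 0.11 ± 0.13 (SE), adjusted p = 0.664). The log2 fold change was 0.06 ± 0.10 (adjusted p = 0.728) in cycling basal-like, -0.04 ± 0.14 (adjusted p = 0.914) in suprabasal-like and 0.28 ± 0.09 (adjusted p = 0.118) in hair follicle-like cells. In the last class both TKO libraries (266 and 266) lay above both Ctrl libraries (219 and 227). Transcript counts do not measure the p53 protein.

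Mdm2, the inhibitor and target of p53, had 60.3 and 72.9 CPM (Ctrl) against 151 and 126 (TKO) in suprabasal-like cells, where it rose (log2 fold change 0.97 ± 0.14 (SE), adjusted p = 0.0403). The groups did not overlap there, but the call was lost without Ctrl 1 (adjusted p = 0.165) and without Ctrl 2 (adjusted p = 0.0599). Its level in resting basal-like cells was 56.5 and 67.4 (Ctrl) against 91.5 and 118 (TKO), also without overlap, and missed the threshold (log2 fold change 0.72 ± 0.17 (SE), adjusted p = 0.0617). It did so in cycling basal-like cells (0.41 ± 0.12, adjusted p = 0.0742) and in hair follicle-like cells (0.18 ± 0.14, adjusted p = 0.502), where the libraries overlapped. Zmat3, an RNA-binding zinc finger protein, had 24.3 and 21.3 CPM (Ctrl) against 76.5 and 70.5 (TKO) in resting basal-like cells, so that each TKO library stood well above each Ctrl library. It rose there (log2 fold change 1.65 ± 0.12 (SE), adjusted p = 0.00222), in cycling basal-like cells (1.64 ± 0.14, adjusted p = 0.00183) and in hair follicle-like cells (1.07 ± 0.14, adjusted p = 0.0112; adjusted p = 0.0743 without TKO 1). In suprabasal-like cells its value was 0.82 ± 0.13 (adjusted p = 0.0504).

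Among the genes of cell cycle control, Cdkn1a, which encodes the cyclin-dependent kinase inhibitor p21, had 48.3 and 58.1 CPM (Ctrl) against 177 and 180.4 (TKO) in resting basal-like cells. The 2 TKO libraries lay close together and far above Ctrl (log2 fold change 1.71 ± 0.13 (SE), adjusted p = 0.00248). Without correction between libraries in the clustering the value was 1.39 ± 0.37 (adjusted p = 0.129) and the call was lost. Its level in cycling basal-like cells was 18.3 and 38.4 (Ctrl) against 102 and 69.3 (TKO), a wider spread in each group that still did not overlap (log2 fold change 1.61 ± 0.33 (SE), adjusted p = 0.0234). The fold there was 2.21 on the log2 scale without Ctrl 2, and the call was lost without correction between libraries (1.24, adjusted p = 0.103) and at Leiden resolution 2. Hair follicle-like cells had 28.2 and 41.1 (Ctrl) against 93.9 and 60.7 (TKO) and a called rise (log2 fold change 1.18 ± 0.24 (SE), adjusted p = 0.0424). That call was lost without TKO 1 (adjusted p = 0.176) and without Ctrl 1 (adjusted p = 0.0828). Suprabasal-like cells had the most Cdkn1a in either genotype, 322 and 319 (Ctrl) against 565 and 451 (TKO), and the smallest fold change, which missed the threshold (log2 fold change 0.58 ± 0.13 (SE), adjusted p = 0.106).

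Ccng1, which encodes cyclin G1, a partner of the phosphatase PP2A, rose in all 4 classes. It had 21.5 and 26.1 CPM (Ctrl) against 112 and 95.9 (TKO) in resting basal-like cells, a log2 fold change of 2.09 ± 0.15 (SE, adjusted p = 0.00204). Without correction between libraries in the clustering it was 1.35 (adjusted p = 0.0134). The Ctrl libraries kept to a narrow range of 16.3 to 28.7 over the classes while every TKO value was at least 43.8. The log2 fold change was 1.67 ± 0.16 (adjusted p = 0.00259) in cycling basal-like, 1.78 ± 0.16 (adjusted p = 0.012) in suprabasal-like and 1.63 ± 0.18 (adjusted p = 0.00717) in hair follicle-like cells. Each of these calls held with any 1 library left out. Plk2, a polo-like kinase that acts in centriole duplication and in stressed cells, also rose in every class. In suprabasal-like cells it had 27.4 and 28.7 (Ctrl) against 94.6 and 108 (TKO), a log2 fold change of 1.77 ± 0.14 (SE, adjusted p = 0.0101), with both pairs close together. In the basal-like classes Ctrl 2 stood above Ctrl 1, with 14.9 and 29.7 (Ctrl) against 67.1 and 57.6 (TKO) in resting cells, a log2 fold change of 1.44 ± 0.31 (SE, adjusted p = 0.0458) that was 2.03 without Ctrl 2. Cycling cells had 9.22 and 19.1 (Ctrl) against 46.6 and 38.5 (TKO), a log2 fold change of 1.61 ± 0.30 (SE, adjusted p = 0.0176) that was 2.20 without Ctrl 2. The value in hair follicle-like cells was 1.58 ± 0.28 (adjusted p = 0.0273), or adjusted p = 0.136 without TKO 1.

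Psrc1, which encodes a microtubule-binding protein of the mitotic spindle, had 5.04 and 5.78 CPM (Ctrl) against 23.2 and 20.7 (TKO) in resting basal-like cells, a log2 fold change of 1.98 ± 0.17 (SE, adjusted p = 0.00339). Cycling basal-like cells had 24.99 and 27.8 (Ctrl) against 32.1 and 25.2 (TKO), an overlap of the groups at a higher level (log2 fold change 0.13 ± 0.15 (SE), adjusted p = 0.595). More TKO than Ctrl cells of the resting class passed the cycling level, as given above, and the part of these cells in the result was not tested. With cycling set cell by cell the log2 fold change was 2.25 (adjusted p = 0.00317). It was 1.17 (adjusted p = 0.0211) when the genes that differed between genotypes were kept in the clustering, and 1.498 (adjusted p = 0.0601) without correction between libraries. In suprabasal-like cells Psrc1 had 8.72 and 10.4 (Ctrl) against 29.7 and 22.3 (TKO), a log2 fold change of 1.35 ± 0.20 (SE, adjusted p = 0.043). There 27.4% of TKO 1 cells against 10.5% to 14.0% in the other libraries passed the cycling level. That call was lost without Ctrl 1 (adjusted p = 0.129) or Ctrl 2 (adjusted p = 0.056), and the value was 2.13 without correction between libraries. Its value in hair follicle-like cells was 0.57 ± 0.19 (adjusted p = 0.141).

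Plk3, a related kinase, and Btg2, an antiproliferative factor that is also an early response gene, were not called in any class. Btg2 was highest in Ctrl 2 in every class, with 139 and 506 (Ctrl) against 244 and 189 (TKO) in resting basal-like cells. Its log2 fold change ran from -1.30 in hair follicle-like to 0.07 in suprabasal-like cells. The 11 immediate early genes fixed as a list were likewise highest in Ctrl 2 in the basal-like and hair follicle-like cells when summed. The sum was 6491 CPM in Ctrl 2 against 2349 in Ctrl 1, 3982 in TKO 1 and 1576 in TKO 2 in resting basal-like cells. None of them was called in any class.

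**Figure D2:**
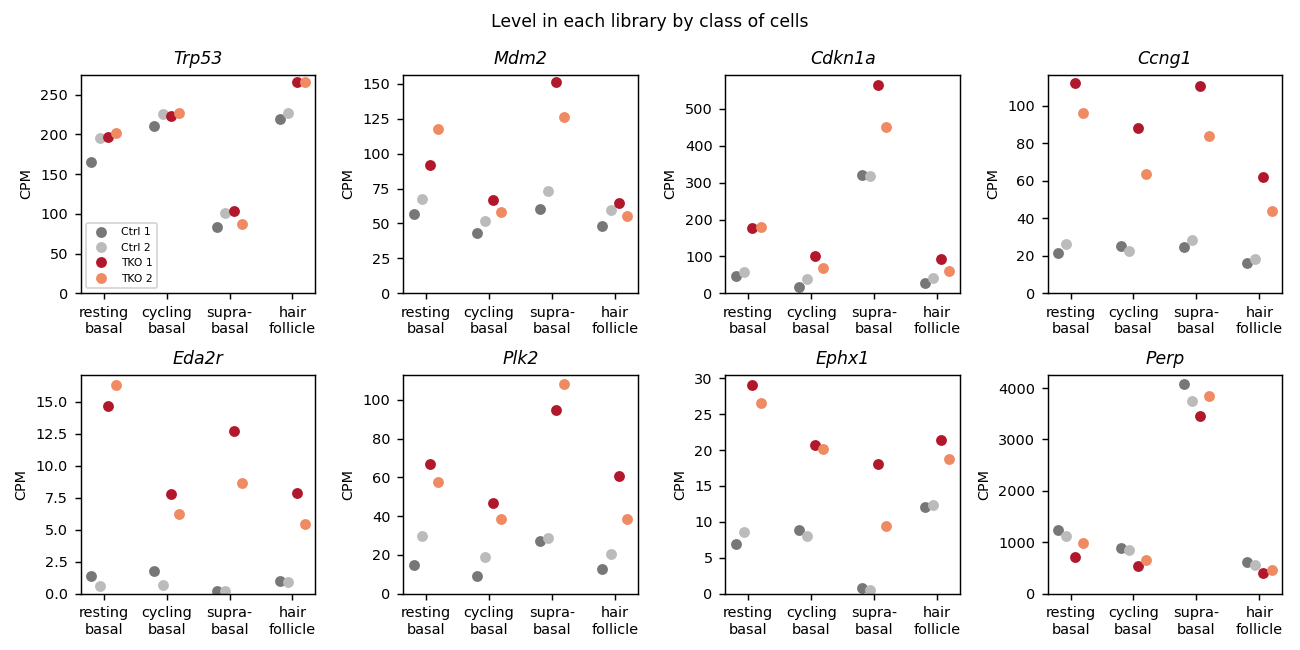
CPM (y axis, from 0) of 8 members in each library (grey Ctrl, red and orange TKO) in 4 classes of cells. Ccng1, Eda2r, Plk2 and Ephx1 are higher in both TKO libraries in every class, and Trp53 is near level. Cdkn1a is highest in suprabasal-like cells of either genotype, and Perp is lower in both TKO libraries in all but the suprabasal-like cells.

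Among the receptor genes the largest fold was that of Eda2r, a receptor of the TNF receptor family that binds the A2 form of ectodysplasin. It was close to silent in Ctrl, with 26 and 11 UMIs (Ctrl) against 199 and 206 (TKO) in resting basal-like cells, or 1.35 and 0.583 against 14.6 and 16.3 CPM. This was the largest log2 fold change among the members in that class (log2 fold change 3.95 ± 0.36 (SE), adjusted p = 0.00384), and its size moved with the settings, from 2.69 without correction between libraries in the clustering to 4.66 without Ctrl 1. In suprabasal-like cells 4 and 2 Ctrl UMIs stood against 93 and 110 (TKO), a log2 fold change of 5.56 ± 0.41 (SE, adjusted p = 0.01). The size of that fold rests on 6 Ctrl UMIs and ran from 5.30 to 6.94 over the alternatives. The groups did not overlap in cycling basal-like cells either (1.76 and 0.706 CPM against 7.80 and 6.23, log2 fold change 2.49 ± 0.40 (SE), adjusted p = 0.0113), where it was 3.32 without Ctrl 1. For hair follicle-like cells the value was 2.80 ± 0.35 (adjusted p = 0.00973), or adjusted p = 0.0582 without TKO 1.

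Tnfrsf10b, which encodes the receptor of the death ligand TRAIL, had 3.85 and 5.30 CPM (Ctrl) against 12.4 and 9.41 (TKO) in resting basal-like cells. It had 3.52 and 4.08 (Ctrl) against 8.87 and 6.42 (TKO) in cycling basal-like cells. It rose in resting (log2 fold change 1.21 ± 0.25 (SE), adjusted p = 0.0426) and in cycling cells (1.02 ± 0.25, adjusted p = 0.0407), without overlap. Neither call was kept without Ctrl 1 (adjusted p = 0.189 and 0.141), Ctrl 2 (0.0779 and 0.0759) or TKO 1 (0.0608 and 0.117). The values in suprabasal-like and hair follicle-like cells were 1.44 ± 0.27 (adjusted p = 0.0719) and 0.48 ± 0.24 (adjusted p = 0.298). Fas, the receptor of Fas ligand, was called in no class. Suprabasal-like cells gave 2 and 9 UMIs (Ctrl) against 33 and 56 (TKO), a log2 fold change of 3.34 ± 0.75 (SE, adjusted p = 0.105). Resting basal-like cells had 4.37 and 11.99 CPM (Ctrl) against 21.8 and 19.6 (TKO), a log2 fold change of 1.30 ± 0.43 (SE, adjusted p = 0.127).

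Of the mitochondrial branch, Bax, which encodes the pore-forming effector of apoptosis, rose in 3 classes. Resting basal-like cells had 80.04 and 90.2 CPM (Ctrl) against 219 and 189 (TKO), with each TKO library far above each Ctrl library (log2 fold change 1.22 ± 0.12 (SE), adjusted p = 0.00531). The log2 fold change was 1.13 ± 0.15 (adjusted p = 0.00607) in cycling basal-like and 0.59 ± 0.11 (adjusted p = 0.0319) in hair follicle-like cells, where the call was lost without Ctrl 1, Ctrl 2 or TKO 1 (adjusted p = 0.0977, 0.101 and 0.128). In suprabasal-like cells it was 0.85 ± 0.18 (adjusted p = 0.091). Apaf1, the scaffold of the caspase-activating apoptosome, had 25.5 and 25.99 (Ctrl) against 43.02 and 43.8 (TKO) in resting basal-like cells, a log2 fold change of 0.72 ± 0.12 (SE, adjusted p = 0.0226). Both pairs were tight, but 10 of 18 alternatives lost the call. Among them were those without Ctrl 1 (adjusted p = 0.14) and without Ctrl 2 (adjusted p = 0.117), and the clustering without correction between libraries, where the log2 fold change was 0.07 (adjusted p = 0.873). The other classes gave 0.25 ± 0.14 (adjusted p = 0.273), 1.22 ± 0.24 (adjusted p = 0.075) and 0.26 ± 0.14 (adjusted p = 0.318) in cycling basal-like, suprabasal-like and hair follicle-like cells.

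Pmaip1 and Bbc3, which encode the BH3-only death activators Noxa and Puma, were not called in any class. Bbc3 had 22 and 35.8 (Ctrl) against 41.6 and 25.4 (TKO) in resting basal-like cells, a log2 fold change of 0.17 ± 0.30 (SE, adjusted p = 0.779) and overlapped between the genotypes in all 4 classes. Pmaip1 had 26.6 and 56.7 (Ctrl) against 54.1 and 46.7 (TKO) there, a log2 fold change of 0.23 ± 0.33 (SE, adjusted p = 0.721), with Ctrl 2 as high as TKO. It had 69.01 and 83.1 (Ctrl) against 162 and 104 (TKO) in suprabasal-like cells, without overlap (log2 fold change 0.72 ± 0.21 (SE), adjusted p = 0.179). Within the same branch, then, the effector Bax was called in 3 classes and these 2 activators in none. The difference between genes was not tested.

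Aen, an exonuclease of apoptotic nuclei, had 30.6 and 26.4 CPM (Ctrl) against 65.6 and 58.5 (TKO) in resting basal-like cells, a log2 fold change of 1.09 ± 0.13 (SE, adjusted p = 0.00807). Its log2 fold change was 1.39 ± 0.17 (adjusted p = 0.00499) in cycling basal-like and 1.02 ± 0.19 (adjusted p = 0.0298) in hair follicle-like cells. Suprabasal-like cells had more of it in Ctrl, 63.3 and 56.6 (Ctrl) against 83.8 and 74.96 (TKO), a log2 fold change of 0.31 ± 0.13 (SE, adjusted p = 0.299). Phlda3, which restrains the survival kinase Akt, had 61.4 and 58.8 (Ctrl) against 99.9 and 99.9 (TKO) in resting basal-like cells, a narrow pair in each genotype (log2 fold change 0.70 ± 0.10 (SE), adjusted p = 0.0159). It also rose in cycling basal-like (0.62 ± 0.10, adjusted p = 0.0117) and hair follicle-like cells (0.71 ± 0.11, adjusted p = 0.0177). Of the suprabasal-like libraries TKO 2 alone stood out, with 103 and 102 (Ctrl) against 107 and 163 (TKO), a log2 fold change of 0.33 ± 0.22 (SE, adjusted p = 0.527). Ei24, a membrane protein of the endoplasmic reticulum, had 67.4 and 61.9 (Ctrl) against 128 and 117 (TKO) in resting basal-like cells, a log2 fold change of 0.89 ± 0.10 (SE, adjusted p = 0.00841). It had 67.7 and 70.3 (Ctrl) against 117 and 91.98 (TKO) in cycling basal-like cells, a log2 fold change of 0.61 ± 0.12 (SE, adjusted p = 0.0234). Its values in suprabasal-like and hair follicle-like cells were 0.52 ± 0.12 (adjusted p = 0.118) and 0.53 ± 0.13 (adjusted p = 0.0646).

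Several of these calls were lost when 1 library was left out. The fold changed little for Phlda3 and Ei24. It was smaller for Aen in hair follicle-like cells, where the log2 fold change with all libraries was 1.02. Aen in hair follicle-like cells had a log2 fold change of 0.84 (adjusted p = 0.0615) without Ctrl 2 and 0.80 (adjusted p = 0.144) without TKO 1. Phlda3 there had 0.66 without either, with adjusted p = 0.071 and 0.0929. For resting basal-like cells Phlda3 had 0.71 (adjusted p = 0.0966) without Ctrl 1 and 0.67 (adjusted p = 0.102) without Ctrl 2, and Ei24 had 0.83 (adjusted p = 0.0579) without Ctrl 2. Ei24 in cycling basal-like cells had 0.59 (adjusted p = 0.0652) without Ctrl 1.

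Trp53inp1, a stress protein that acts on p53 and in autophagy, had 57.6 and 60.3 CPM (Ctrl) against 193 and 193 (TKO) in resting basal-like cells, a log2 fold change of 1.67 ± 0.11 (SE, adjusted p = 0.00152), where the spread within each genotype was small beside the gap. Without correction between libraries in the clustering it was 0.63 (adjusted p = 0.0784) and the call was lost, and it was 0.75 (adjusted p = 0.0169) when the genes that differed between genotypes were kept. In suprabasal-like cells it had 34.5 and 23.9 (Ctrl) against 118 and 110.3 (TKO), a log2 fold change of 1.87 ± 0.20 (SE, adjusted p = 0.0206). Cycling basal-like cells had 45.8 and 51.99 (Ctrl) against 92.3 and 61.5 (TKO), a log2 fold change of 0.67 ± 0.18 (SE, adjusted p = 0.0546). Hair follicle-like cells had 65.7 and 64.6 (Ctrl) against 107 and 82.9 (TKO), a log2 fold change of 0.57 ± 0.14 (SE, adjusted p = 0.0614). The groups did not overlap in either, but the test missed the threshold.

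Perp, a tetraspan protein of desmosomes that epidermis needs for cohesion, ran the other way. Cycling basal-like cells had 893 and 857 CPM (Ctrl) against 542 and 663 (TKO), and Perp fell there (log2 fold change -0.52 ± 0.13 (SE), adjusted p = 0.0388). The groups did not overlap, but 10 of 17 alternatives lost the call, among them those without Ctrl 1 (adjusted p = 0.1) and without TKO 1 (adjusted p = 0.0963). The value was -0.50 ± 0.17 (adjusted p = 0.145) in resting basal-like, -0.18 ± 0.13 (adjusted p = 0.538) in suprabasal-like and -0.40 ± 0.12 (adjusted p = 0.107) in hair follicle-like cells. Suprabasal-like cells held the most Perp, with 4074 and 3749 (Ctrl) against 3467 and 3842 (TKO) and an overlap of the groups.

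Of the genes of DNA repair and replication, Polk, a polymerase that copies past damaged bases, rose in 3 classes. It had 28.4 and 24.5 CPM (Ctrl) against 68.6 and 69.1 (TKO) in resting basal-like cells, a log2 fold change of 1.34 ± 0.12 (SE, adjusted p = 0.00434). It had 23.02 and 24.3 (Ctrl) against 40.8 and 36.3 (TKO) in cycling basal-like cells, a log2 fold change of 0.72 ± 0.12 (SE, adjusted p = 0.0124). Hair follicle-like cells had 28.9 and 23.9 (Ctrl) against 51.5 and 44.7 (TKO), a log2 fold change of 0.89 ± 0.14 (SE, adjusted p = 0.0216). The genotypes were apart each time. Its call in hair follicle-like cells was lost without Ctrl 2, TKO 1 or TKO 2 (adjusted p = 0.0615, 0.122 and 0.0505). In suprabasal-like cells the value was 1.18 ± 0.19 (adjusted p = 0.0504). Xpc and Ddb2, which recognise damage in nucleotide excision repair, and Rrm2b, a subunit of ribonucleotide reductase, were not called in any class. Ddb2 had 38.9 and 35.5 (Ctrl) against 29.3 and 23.5 (TKO) in resting basal-like cells, a log2 fold change of -0.53 ± 0.14 (SE, adjusted p = 0.0776). It had 34.1 and 35.2 (Ctrl) against 26.9 and 20.6 (TKO) in cycling basal-like cells (-0.53 ± 0.15, adjusted p = 0.0551). Both TKO libraries lay under both Ctrl libraries in each. The values of Xpc lay between -0.22 and 0.11 and those of Rrm2b between -0.29 and -0.16 over the 4 classes.

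Of the metabolic and stress members, Ephx1, the microsomal epoxide hydrolase that detoxifies epoxides, rose in every class. It had 6.97 and 8.54 CPM (Ctrl) against 29.05 and 26.6 (TKO) in resting basal-like cells, a log2 fold change of 1.80 ± 0.17 (SE, adjusted p = 0.00406) that was 1.20 without correction between libraries in the clustering. It had 8.87 and 8.08 (Ctrl) against 20.7 and 20.2 (TKO) in cycling basal-like cells, a log2 fold change of 1.28 ± 0.15 (SE, adjusted p = 0.00433), with tight pairs. In suprabasal-like cells it was nearly absent from Ctrl, with 15 and 5 UMIs against 132 and 120 (TKO), a log2 fold change of 4.25 ± 0.46 (SE, adjusted p = 0.0201) that ran from 3.43 to 4.98 over the alternatives. Hair follicle-like cells had 12.04 and 12.3 (Ctrl) against 21.4 and 18.8 (TKO), a log2 fold change of 0.75 ± 0.15 (SE, adjusted p = 0.043). That call was lost under 11 of 15 alternatives, each omission of a library among them (adjusted p from 0.0753 to 0.163).

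Rps27l, a paralogue of ribosomal protein S27, had 200.1 and 192 CPM (Ctrl) against 372 and 377 (TKO) in resting basal-like cells, a log2 fold change of 0.90 ± 0.10 (SE, adjusted p = 0.00777). It also rose in cycling basal-like (0.88 ± 0.10, adjusted p = 0.00378) and hair follicle-like cells (0.65 ± 0.11, adjusted p = 0.0218), and had 0.45 ± 0.12 (adjusted p = 0.142) in suprabasal-like cells. The resting call was lost without Ctrl 1 (adjusted p = 0.0533) and without Ctrl 2 (adjusted p = 0.0575), and that in hair follicle-like cells without Ctrl 2, TKO 1 or TKO 2 (adjusted p = 0.0946, 0.115 and 0.0527). How reads shared with Rps27 were assigned is not given in the sources used here, and Bax and Ephx1 overlap predicted genes on their own strand. The counts of Rps27l, Bax and Ephx1 carry that uncertainty. Sesn1, Sesn2, Fas and Rrm2b, which were called in no class, also overlap other annotated genes on their own strand.

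Sesn1, Sesn2 and Ddit4, inhibitors of the growth kinase complex mTORC1, and Ak1, an adenylate kinase, were not called in any class. Sesn2 had 11.8 and 17.1 (Ctrl) against 28.02 and 17.8 (TKO) in resting basal-like cells, a log2 fold change of 0.62 ± 0.27 (SE, adjusted p = 0.213). Sesn1 had 97.7 and 87.3 (Ctrl) against 76.8 and 81.6 (TKO) there, a log2 fold change of -0.26 ± 0.11 (SE, adjusted p = 0.222), so that the 2 sestrins lay on opposite sides of Ctrl without passing the test. Ddit4 ranged from -0.08 to 0.30 over the 4 classes, and Plk3 from -0.03 to 1.22. Ak1 had at most 28 UMIs in any library and class and was too low to test in suprabasal-like cells. Gdf15, a secreted stress cytokine, had 0 to 5 UMIs per library and class, and no fold is given.

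Whether the effect of genotype differed between classes was tested in 1 model over the 16 sums, with library as a term and resting basal-like cells as the reference. A difference was called for 1 member in cycling basal-like, 5 in suprabasal-like and 3 in hair follicle-like cells, of 31 tested, where 0.0115%, 3.14% and 1.25% of all 17334 genes were called. The suprabasal markers of the suprabasal-like class summed to less in TKO (58935 and 52872 CPM in Ctrl against 27404 and 41942 in TKO), and their part in the differences below was not tested. In suprabasal-like cells the effect was smaller for Cdkn1a (difference in log2 fold change -1.24 ± 0.27 (SE), adjusted p = 0.0344), Zmat3 (-0.89 ± 0.17 (SE), adjusted p = 0.0178), Aen (-0.83 ± 0.14 (SE), adjusted p = 0.0107) and Rps27l (-0.51 ± 0.09 (SE), adjusted p = 0.0125). It was larger there for Ephx1 (2.32 ± 0.40 (SE), adjusted p = 0.0124), whose Ctrl level in suprabasal-like cells rests on 15 and 5 UMIs.

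The effect in hair follicle-like cells was smaller for Psrc1 (-1.44 ± 0.19 (SE), adjusted p = 0.00322), Trp53inp1 (-1.14 ± 0.23 (SE), adjusted p = 0.0332) and Bax (-0.66 ± 0.11 (SE), adjusted p = 0.0123). It was smaller in cycling basal-like cells for Psrc1 alone (-1.87 ± 0.18 (SE), adjusted p = 0.00261), where the Ctrl level was itself higher. For the other members a difference between classes was not called, whatever their calls within a class. None of these 9 differences was called without Ctrl 1, or without Ctrl 2.

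**Figure D3:**
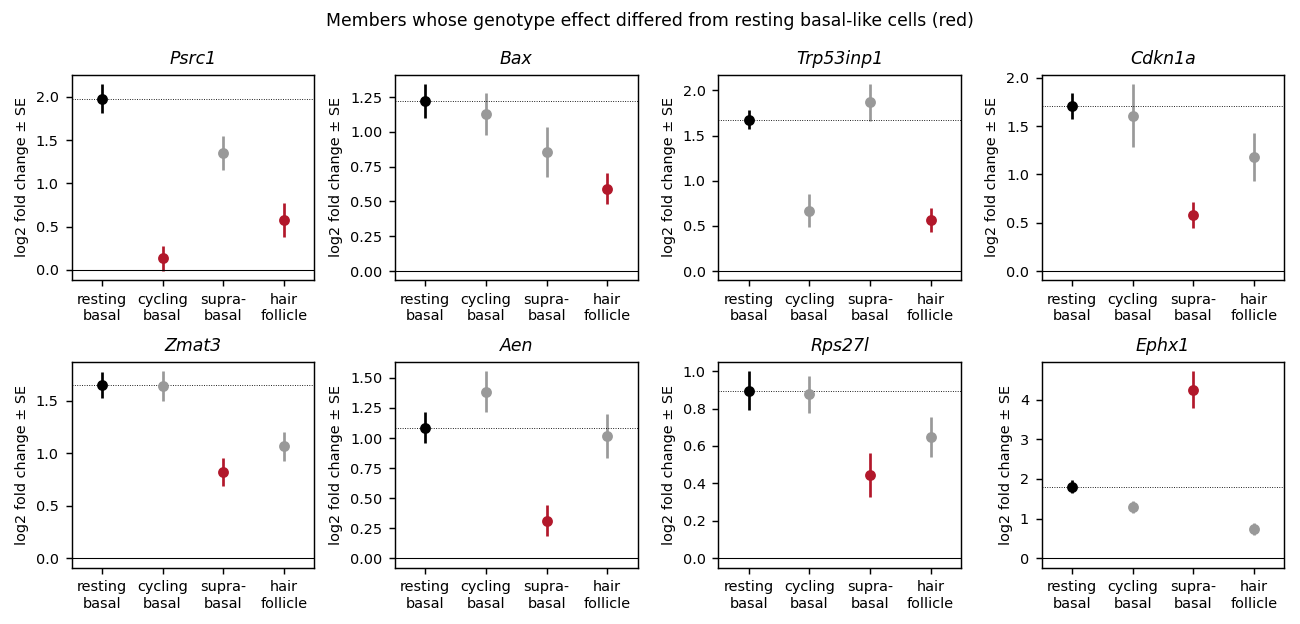
The log2 fold change of TKO over Ctrl (y axis, with its SE) by class for the 8 members whose effect differed between classes. Black is the resting basal-like reference (dotted line), red marks a called difference from it and grey none. Cdkn1a, Zmat3, Aen and Rps27l are red and lower in suprabasal-like cells, and Ephx1 is red and higher at 4.25.

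The share of cells with a transcript was compared at a common depth of 5000 UMIs per cell, since TKO cells were deeper. Cdkn1a was seen in 14.1% (95% CI 11.9 to 16.4, 133 of 946 cells) and 18.8% (95% CI 16.53 to 21.2, 211 of 1124 cells) of Ctrl resting basal-like cells. In TKO it was seen in 36.2% (95% CI 32.02 to 40.4, 188 of 520 cells) and 30.9% (95% CI 26.8 to 35.1, 154 of 499 cells). These are exact Clopper-Pearson intervals, which cover counting error only. The mean was 16.4% ± 3.33 in Ctrl and 33.5% ± 3.74 in TKO (SD, n = 2), a difference larger than the spread. The exact two-sided permutation test gave 0.3333, the smallest p that 2 against 2 allows. With all UMIs the shares were 33.02% and 35.8% in Ctrl and 60.6% and 51% in TKO. Immune-like cells of the same libraries had Cdkn1a in 23.6% and 33.1% (Ctrl) and 34.8% and 31.2% (TKO) at 5000 UMIs. The keratinocyte shares thus lay below or close to those of another cell type. Whether those cells express Cdkn1a themselves was not tested, so their shares are no measure of background. The change in keratinocytes is read from the called sums above and not from the shares.

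Eda2r was seen in 0.529% (95% CI 0.172 to 1.23, 5 of 946 cells) and 0.356% (95% CI 0.0970 to 0.909, 4 of 1124 cells) of Ctrl resting basal-like cells. In TKO it was seen in 6.35% (95% CI 4.41 to 8.80, 33 of 520 cells) and 6.21% (95% CI 4.26 to 8.70, 31 of 499 cells). In immune-like cells it was seen in 0 of 123 and 0 of 139 cells in Ctrl, where 3 counts would be shares of cells with a UMI of 2.44% and 2.16%, and in 1 of 302 and 1 of 443 in TKO. The keratinocyte shares in TKO lay above these, with a difference between the genotypes of 5.84 percentage points (p = 0.3333, exact permutation test). With all UMIs they were 2.19% and 0.789% in Ctrl and 18.9% and 16.6% in TKO. Shares in other classes did not all rise alike. In cycling basal-like cells at 5000 UMIs Cdkn1a was seen in 5.12% and 14.5% (Ctrl) against 26.1% and 15.0% (TKO). Trp53inp1, not called there, was seen in 19.2% and 22.7% (Ctrl) against 21.5% and 15.6% (TKO).

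Because the knockout is mosaic, the members were also set out by the state of single TKO cells. Cells were called derepressed if they held at least 1 UMI, at 5000 UMIs, of Npffr1, Gm11884, Col28a1, 1700030N03Rik or Gm42653, genes silent in Ctrl that were chosen from earlier results of these data and are not members, and silent otherwise. Among resting basal-like cells 59.8% and 58.9% of TKO cells were derepressed against 0.423% and 0.445% of Ctrl cells. The share in TKO was 68.1% and 61.5% in cycling basal-like, 64.2% and 67.9% in suprabasal-like and 58.8% and 45.6% in hair follicle-like cells. Silent cells can include deleted cells in which none of the 5 genes was sampled. Setdb1 was lower in derepressed (31.01 to 40.5 CPM) than in silent TKO cells (33.3 to 49.8) in both libraries and all 4 classes. Silent TKO cells in turn lay below silent Ctrl cells (55.7 to 80.7). The values below are descriptions within 2 libraries, with no test.

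Most of the p53 targets raised in TKO were higher in the derepressed cells. Of the 16 members raised in resting basal-like cells, 15 were higher in derepressed than in silent cells in both TKO libraries, where 32.3% of all genes tested and 63.4% of the genes raised in that class were. The count was 12 of 13 in cycling basal-like (26.3% of all genes, 49.1% of raised genes), 6 of 7 in suprabasal-like (34.1% and 72.8%) and 8 of 11 in hair follicle-like cells (26.5% and 43.5%). Among members not called, 7 of 15, 11 of 17, 15 of 23 and 8 of 20 were higher in derepressed cells of both libraries, in the same order of classes. Trp53inp1 had 280.4 and 278 CPM in derepressed resting basal-like cells of TKO 1 and TKO 2, 91.9 and 67.3 in silent cells of the same libraries and 57.7 and 58.2 in Ctrl. Its silent cells came near Ctrl in TKO 2 and lay above it in TKO 1. Cdkn1a had 263 and 215, 122 and 65.4 and 41.4 and 56.6 in the same order, with silent cells in between. Ccng1 had 143 and 112, 67.9 and 64.4 and 19.5 and 25.3, and Bax had 251 and 205, 178 and 166 and 72.7 and 88.1, so that silent TKO cells stood clearly above Ctrl for both.

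Trp53 showed no such order, with 184 and 184 in derepressed, 195 and 202 in silent and 153 and 183 in Ctrl resting basal-like cells. Mdm2, not called in that class over all cells, had 112 and 137, 74.6 and 79.02 and 54.97 and 62.6, and in suprabasal-like cells 242 and 194, 119 and 85.7 and 62.4 and 81.3. In both classes its derepressed cells were the highest in each library, but in cycling basal-like cells of TKO 2 they lay below silent cells (53.8 against 56). Among cycling basal-like cells Trp53inp1 had 117 and 79.6 in derepressed and 35.2 and 32 in silent cells, on either side of the 46.7 and 61.1 in Ctrl. Plk2 differed less by state, with 122 and 109.5 in derepressed and 100 and 114 in silent suprabasal-like cells against 26.2 and 36.1 in Ctrl. Silent TKO cells lay above both Ctrl libraries for 13 of the 16 raised members in resting basal-like, 10 of 13 in cycling basal-like, 6 of 7 in suprabasal-like and 10 of 11 in hair follicle-like cells. The same held for 72.8%, 77.0%, 62.5% and 84.4% of all genes raised in these classes and for 22.5%, 22.6%, 19.1% and 19.2% of all genes tested. Before thinning, derepressed and silent resting basal-like cells had a median of 24178 and 24414 UMIs in TKO 1 and 23082 and 24587 in TKO 2. Of the derepressed and the silent cells, 33.8% against 48.8% in TKO 1 and 14.97% against 16.1% in TKO 2 lay in the stress-led cluster, whose part in the result was not tested.

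**Figure D4:**
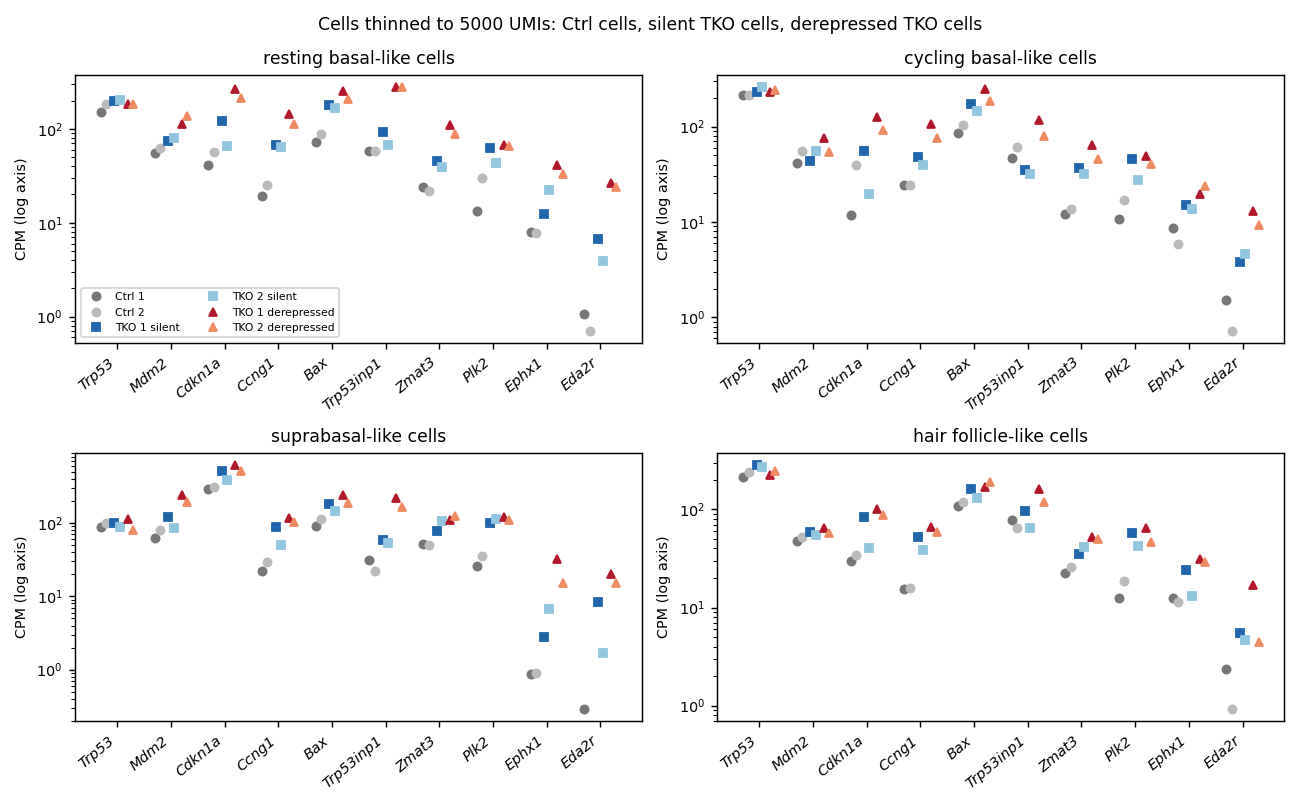
CPM (y axis, log scale) of 10 members in cells thinned to 5000 UMIs, for Ctrl cells (grey circles), silent TKO cells (blue squares) and derepressed TKO cells (red and orange triangles) of each library, in 4 classes. For Trp53inp1, Cdkn1a and Ccng1 in resting basal-like cells the triangles are above the squares, and for Trp53 the 3 kinds of points lie together. Eda2r in suprabasal-like cells of Ctrl 2 was 0 and is not drawn.

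In a separate list of regulators and relatives of p53, which leaves out members such as Mdm2 and Trp53inp1, a single gene was called. Of 13 genes that act on or beside p53 (kinases such as Atm and Chek2, the Mdm2 partner Mdm4, the relatives Trp63 and Trp73), 12 were tested in each class, none rose and 1 fell in each class but the suprabasal-like cells. Of all genes, 4.96%, 9.3%, 1.32% and 3.16% were raised and 2.46%, 5.18%, 0.458% and 2.89% lowered in resting basal-like, cycling basal-like, suprabasal-like and hair follicle-like cells. That gene was Trp73, which encodes the family member p73. It had 28.4 and 28.96 CPM (Ctrl) against 15.7 and 16.9 (TKO) in resting basal-like cells, a log2 fold change of -0.85 ± 0.13 (SE, adjusted p = 0.0181). It had 32.5 and 32.2 (Ctrl) against 15.7 and 20.1 (TKO) in cycling basal-like cells, a log2 fold change of -0.84 ± 0.16 (SE, adjusted p = 0.0183). Hair follicle-like cells had 38.2 and 43.7 (Ctrl) against 20.2 and 23.3 (TKO), a log2 fold change of -0.88 ± 0.14 (SE, adjusted p = 0.02). The TKO libraries lay below Ctrl in all 3. In suprabasal-like cells it was low in both genotypes (-0.59 ± 0.57, adjusted p = 0.667). The median log2 fold change of the list lay between -0.14 and 0.02 over the classes.

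A second list of 16 further p53 targets gave 8 of 16 raised in resting basal-like cells, 3 of 15 in cycling basal-like, 1 of 13 in suprabasal-like and 1 of 15 in hair follicle-like cells, where 1 was lowered. The raised share of all genes was 4.96%, 9.3%, 1.32% and 3.16% in these classes. The median log2 fold changes were 0.73, 0.23, 0.62 and 0.09. Zfp365, which acts in the stability of the genome, was almost silent in resting basal-like cells of Ctrl, with 0.676 and 0.742 (Ctrl) against 12.4 and 11.8 (TKO), a log2 fold change of 4.04 ± 0.25 (SE, adjusted p = 0.00151). It rose as well in cycling basal-like (2.47 ± 0.47, adjusted p = 0.0183) and suprabasal-like cells (adjusted p = 0.0471), where 0 and 1 UMIs (Ctrl) against 39 and 30 (TKO) leave the fold without a size. The hair follicle-like libraries overlapped (0.18 ± 0.32, adjusted p = 0.799). The noncoding gene Pvt1 rose in resting basal-like (0.70 ± 0.14, adjusted p = 0.0364), cycling basal-like (1.17 ± 0.12, adjusted p = 0.00316) and hair follicle-like cells (1.73 ± 0.17, adjusted p = 0.00513). Dcxr, an enzyme of sugar metabolism, rose in resting (1.33 ± 0.23, adjusted p = 0.0264) and cycling basal-like cells (1.04 ± 0.25, adjusted p = 0.0353), with TKO 1 well above TKO 2 in each.

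Rprm, an inhibitor of entry into mitosis, had opposite calls in 2 classes. Hair follicle-like cells had 8.79 and 7.61 CPM (Ctrl) against 2.08 and 1.94 (TKO), where it fell (log2 fold change -2.0 ± 0.26 (SE), adjusted p = 0.0116). Resting basal-like cells had 0 and 2 UMIs (Ctrl) against 46 and 18 (TKO), where it rose (adjusted p = 0.0236), a fold that 2 Ctrl UMIs leave without a size. Ptprv, a phosphatase-like protein (2.42 ± 0.43, adjusted p = 0.0269), and Tap1, a peptide transporter of antigen presentation (0.91 ± 0.19, adjusted p = 0.0397), rose in resting basal-like cells. So did Ckap2 (1.38 ± 0.13, adjusted p = 0.00478) and Gtse1 (1.45 ± 0.26, adjusted p = 0.027), both microtubule-associated proteins of dividing cells, in the class where more TKO cells passed the cycling level. In cycling basal-like cells these last 2 were not called, at -0.12 ± 0.10 (adjusted p = 0.489) and 0.24 ± 0.17 (adjusted p = 0.388).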

How the data were processed

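Sorted Epcam+ α6+ cells of dorsal skin were profiled by the authors (10x Genomics 3′ v3 chemistry). The deposited files hold raw UMI counts per gene and cell, not normalized. Per the file headers Cell Ranger 7.1.0 produced them, a version other than that in the methods, and the build was GRCm39. Use of intronic reads is not given in the sources used here.

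Barcodes with under 2000 genes or 10% or more mitochondrial UMIs were left out. Doublets were removed as the highest Scrublet scores of each library (scanpy 1.11.5) at 0.8% per 1000 barcodes, 457 in all. Cells were clustered (2000 variable genes, 30 components, Harmony written for this purpose, Leiden resolution 1), other cell types were removed by markers, and keratinocytes were clustered again without 1340 genes that differed between genotypes and without any p53 gene. A name needed at least 3 detected markers. Basal-like clusters with a median of at least 30 cycling-marker UMIs per 10000 were called cycling, and 666 of 5156 basal-like cells lay within 20% of that level. The suprabasal-like class holds 1 cluster of cycling cells. These thresholds were set after the cells had been seen, and 2 clusters were left unnamed.

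UMIs were summed per class and library and tested with edgeR 4.0.16 (R 4.3.3; TMM factors, default expression filter, quasi-likelihood test, genotype as the term), at a threshold of 0.05. A fit over the 16 sums with library, class and class by genotype gave the differences between classes. Standard errors are the log2 fold change over the root of F. On simulated counts for resting basal-like cells (15986 genes tested), 62.2% of genes changed by 1 on the log2 scale and 92% of those changed by 2 were called, with 8 unchanged genes called. The sums held about 7318480 to 20515500 UMIs, and 73 cells under 5000 UMIs were left out of thinned values.

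The members, the other lists and the tests were chosen with earlier results of these data known. Full values are given for Trp53, Mdm2, Cdkn1a and each member called in at least 1 class, and for genes of the lists p53 upstream and other p53 targets that were called; the stress genes and genes of the immediate early list shown beside them were fixed lists. Genes named otherwise (Bbc3, Pmaip1, Fas, Ddb2, Btg2 and the sestrins with their values) were chosen after these were seen. Alternatives were DESeq2 1.42.0 and other scalings, filters, cell filters and clusterings, and each library was left out in turn.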

Additional observations from a re-analysis of the deposited data

Results flagged for a closer look

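The effect of genotype on 8 members differed between classes of cells in a test of the difference itself, and these are listed with the change in each class. Their adjusted p-values stand with the results above.

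In suprabasal-like against resting basal-like cells the difference in log2 fold change was -1.24 for Cdkn1a, -0.89 for Zmat3, -0.83 for Aen, -0.51 for Rps27l and 2.32 for Ephx1. All 5 had both TKO libraries above both Ctrl libraries in either class, so the sizes differed and not the directions. Ctrl suprabasal-like cells held more Cdkn1a, Zmat3, Aen and Rps27l than Ctrl resting basal-like cells (322 and 319 against 48.3 and 58.1 CPM for Cdkn1a) and less Ephx1 (0.774 and 0.478 against 6.97 and 8.54).

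In hair follicle-like against resting basal-like cells it was -1.44 for Psrc1, -1.14 for Trp53inp1 and -0.66 for Bax, and in cycling basal-like against resting basal-like cells it was -1.87 for Psrc1. Psrc1 had 24.99 and 27.8 CPM in cycling and 5.04 and 5.78 in resting basal-like cells of Ctrl.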

How the results depend on the processing

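The count of called members was 16 in resting basal-like, 14 in cycling basal-like, 7 in suprabasal-like and 11 in hair follicle-like cells. In resting basal-like cells it was 7 with uncorrected components. In suprabasal-like cells it was 15 with DESeq2, 18 without an expression filter and 12 when doublets were kept. In hair follicle-like cells it was 4 with no expression filter, 6 at 5000 UMIs per cell and 7 with uncorrected components. With 1 library left out it ran from 12 to 18, 13 to 16, 5 to 15 and 1 to 9 in the same order of classes. The 1 came without TKO 1, and the 15 in suprabasal-like cells without TKO 2. The 9 differences between classes were 22 with no expression filter, 5 at 5000 UMIs per cell and 0 to 8 with 1 library left out (0 without either Ctrl library). The difference in the share of resting basal-like cells with Cdkn1a, 17.1 percentage points at 5000 UMIs, was 21.4 with all UMIs. The cause of these changes was not tested. Without the stress-led clusters, an alternative chosen after seeing the data, the counts were 20 in resting and 16 in cycling basal-like cells.

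All 48 called pairs of member and class kept their direction under every alternative that gave a value, 22 kept their call under all of them, and 26 lost it under at least 1. Of the 28 pairs not called among the members with full values, 15 passed the threshold under at least 1. Ctrl and TKO share replicate numbers in the labels, but nothing says that a number marks a litter or batch, and 2 pairs are too few to check. With the replicate block the counts were 15, 12, 5 and 10. Eda2r in suprabasal-like cells of Ctrl, with 4 and 2 UMIs, is among the called values most limited by depth.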

Other observations

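The integrated stress response, a programme of the factor Atf4 that shares some targets with the p53 response, was taken as a comparison list of 8 genes. Of these, 7 were tested in each basal-like class, 8 in suprabasal-like and 6 in hair follicle-like cells, and the median log2 fold change lay between -0.41 and -0.02. Asns, which encodes asparagine synthetase, rose in resting basal-like (25.95 and 29.2 (Ctrl) against 52.2 and 52.2 (TKO) CPM, log2 fold change 0.88 ± 0.13 (SE), adjusted p = 0.0152), cycling basal-like (1.06 ± 0.11, adjusted p = 0.00329) and hair follicle-like cells (1.0 ± 0.14, adjusted p = 0.013) and had 0.06 ± 0.13 (adjusted p = 0.86) in suprabasal-like cells. Cebpb, a transcription factor of differentiating epidermis, fell in hair follicle-like cells (219 and 303 (Ctrl) against 109.5 and 126 (TKO), log2 fold change -1.12 ± 0.17 (SE), adjusted p = 0.0169). No other gene of the list was called. Asns and Cebpb were named after their values were seen, and these values come from edgeR's quasi-likelihood test.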
